A study of Mus musculus with 9 samples.

Results

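The genes described here are the 4 R-spondins (Rspo1, Rspo2, Rspo3 and Rspo4), the R-spondin receptors Lgr4 and Lgr5, the ubiquitin ligase Znrf3 and the WNT response genes Axin2, Lef1 and Tcf7, which are 10 of the 24505 genes of a mouse RNA-seq count table. They were taken from the table by name, with earlier results of these data known, which limits the p-values below. Rspo4 itself was picked because it was higher in preleptotene (PL) spermatocytes without retinoic acid (RA) than in those with it. For Rspo4 all values are therefore a description, with no test. The count table holds 3 groups of 3 libraries, each from germ cells sorted by EGFP out of the testes of Uchl1-eGfp transgenic mice. Here EGFP stands under the promoter of Uchl1, and spermatogonia are sorted as bright and PL spermatocytes as dim cells. The line came from a C57BL/6 background and was outcrossed to CD-1. Pups of all 3 groups, the controls included, were dosed with bis-(dichloroacetyl)-diamine, abbreviated WIN here, at 100 µg per g of body weight from P1. This inhibitor of RA synthesis holds spermatogonia undifferentiated, and RA injected once on P11 (10 µl, at a concentration of 10 µg per µl) then started their differentiation together. In/B spermatogonia were collected on P17, and RA-sufficient PL spermatocytes on P19, both after WIN had been stopped so that the testis could make its own RA again. RA-deficient PL spermatocytes were also collected on P19, from pups kept on WIN after the injection. They thus received the injected RA, with RA synthesis blocked before and after it. For the sorts used in qRT-PCR the paper gives several males per litter, and its RNA-seq methods do not state the number. The libraries are numbered 1 to 3 within a group. The study's methods speak of a few independent cell preparations for RNA, without tying each library to its own, so the p-values below measure the spread between these libraries, which may be partly technical.

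R-spondins are secreted proteins that raise the response of a cell to WNT. WNT ligands bind Frizzled receptors and LRP co-receptors, which stabilises β-catenin, and β-catenin then acts on DNA through factors of the TCF/LEF family. ZNRF3 and its relative RNF43 are membrane ubiquitin ligases that remove Frizzled from the cell surface. R-spondin bound to LGR4, LGR5 or LGR6 clears those ligases away, so that more Frizzled stays. Axin2, Lef1, Tcf7, Lgr5 and Znrf3 are themselves transcribed in response to WNT in many tissues, and several of them feed back on the pathway. In the gonad, RSPO1 is best known for its part in ovary determination, and in the testis WNT signals act on spermatogonia as well as on Sertoli cells.

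Total counts ran from 12612959 to 27042274 per library, and the RA-deficient libraries had counts for 14769 to 15327 genes against 16758 to 18434 in the other 6. Marker genes set some libraries apart from the rest of their group or against their labels, which touches every comparison below. Levels are given as CPM, counts scaled to the library total, after TMM scaling over the 9 libraries, a correction for differences in library make-up. In RA-deficient PL replicates 1 and 2 Kit, the receptor of differentiating spermatogonia, was at 560.6 and 521.1 CPM. In replicate 3 of that group it was at 20.3 CPM, close to the RA-sufficient PL libraries (20.2 to 41.0 CPM), whereas the In/B libraries held 327.4 to 404.1 CPM. Stra8, known as a gene induced by RA, was at 377.0 and 365.4 CPM in RA-deficient replicates 1 and 2. In replicate 3 it was at 81.5 CPM, against 120.6 to 444.1 CPM with RA. Replicates 1 and 2 of the RA-deficient group were thus not low in Stra8 mRNA. The study's own RNA-seq comparison likewise found it not significantly changed without RA, although its qRT-PCR saw no rise there. The study proposes that the level of this mRNA at this stage is RA independent, and it could not detect STRA8 protein. Of the 6 spermatogonial markers listed, Kit was the one for which replicate 3 lay within the RA-sufficient range, and for the other 5 it lay above every RA-sufficient library, as with Uchl1 (990.6 against 424.9 to 613.4 CPM) and Dmrt1 (110.7 against 72.0 to 76.8 CPM). Sertoli cell markers moved too. Summed over the 11 of 12 listed markers found in the table, they reached 3153 to 4192 CPM in RA-sufficient PL, 358.1 to 611.9 CPM in RA-deficient PL and 76.0 to 391.5 CPM in In/B. Sycp3 and Dmc1, meiotic prophase genes, were at 402.9 to 612.2 and 360.0 to 746.7 CPM with RA and at 532.3 to 701.1 and 445.4 to 670.8 CPM without it. Their list of germ cell markers also holds Stra8, Rec8, Dazl and Ddx4. Rec8 was at 30.0 to 45.3 CPM with RA and 5.86 to 39.5 without, against 17.5 to 98.4 in In/B. Dazl was at 952.8 to 1198 CPM with RA and 1982 to 2362 without, and Ddx4 at 396.3 to 423.2 and 448.7 to 527.4. Neither Dazl nor Ddx4 overlapped between the PL groups.

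The sequences just upstream of Rspo4 and Rspo1 are shown because these are the R-spondins that were lowest in RA-sufficient PL and high in both other groups. Both are the 250 bases that end directly before the annotated start of transcription, 5′ to 3′ on the plus strand, from RefSeq's promoter windows on GRCm38.p6. The Rspo4 window is chr2:151842677-151842926 and the Rspo1 window chr4:124986180-124986429. Capitals mark the E-box CACGTG and the GC box GGGCGG, written CCGCCC where it lies on the other strand.
Rspo4: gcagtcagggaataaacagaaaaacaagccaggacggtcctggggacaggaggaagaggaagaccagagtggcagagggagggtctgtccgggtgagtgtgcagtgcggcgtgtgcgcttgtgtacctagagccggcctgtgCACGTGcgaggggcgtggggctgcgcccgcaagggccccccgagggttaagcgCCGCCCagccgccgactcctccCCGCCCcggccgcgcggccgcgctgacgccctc
Rspo1: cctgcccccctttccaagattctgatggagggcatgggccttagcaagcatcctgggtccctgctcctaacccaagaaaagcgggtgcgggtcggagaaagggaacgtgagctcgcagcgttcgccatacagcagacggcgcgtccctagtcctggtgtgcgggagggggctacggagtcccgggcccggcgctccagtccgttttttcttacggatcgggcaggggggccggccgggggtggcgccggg
The Rspo4 window held 1 E-box and 2 GC boxes and the Rspo1 window held neither. Over 32851 RefSeq windows of the same length, searched on both strands, 6.02% held the E-box and 32.7% the GC box. Both windows were rich in G and C, at 69.6% for Rspo4 and 66.8% for Rspo1 against a median of 52.4%, with 24 and 22 CpG pairs against a median of 6. Windows were found for 6 of the 10 genes, 10 windows in all. None of them held the TCF site letters CTTTGAT or CTTTGAA, which 3.21% and 4.46% of all windows held. The RA receptor half-site letters AGGTCA, in 14.0% of all windows, occurred in 1 Tcf7 window. None of these 5 motifs contains another, although neighbouring matches could share end bases. On the build of the counts (mm9, GENCODE M1) Rspo4 spans chr2:151668663-151700404 on the plus strand and Rspo1 chr4:124663674-124686343, also plus.

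Rspo4, the R-spondin with the highest level per kilobase in every library, was high in both In/B spermatogonia and RA-deficient PL spermatocytes and low in RA-sufficient PL. Its 3 In/B libraries held 47.7, 39.4 and 34.7 CPM. Its RA-sufficient PL libraries held 3.09, 5.34 and 4.50 CPM, from 42 to 102 counts. Its RA-deficient PL libraries held 34.3, 42.2 and 33.7 CPM, from 770 to 1066 counts. The RA-deficient and In/B libraries overlapped, and all 6 lay above the RA-sufficient ones. The means were 40.6 ± 6.58, 4.31 ± 1.13 and 36.7 ± 4.77 CPM (SD, n = 3 each). Fitted to each pair of groups, Rspo4 was 9.03-fold lower in RA-sufficient PL than in In/B, 8.52-fold higher in RA-deficient than in RA-sufficient PL, and at a log2 fold change of 0.02 between RA-deficient PL and In/B. In sorted bulk samples like these, fewer cells that make an mRNA and less of it per cell cannot be told apart. RA-deficient replicate 3 held the least Rspo4 of its group. Its place above the RA-sufficient libraries goes with the way Rspo4 was chosen and is no separate check.

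Rspo1 was likewise lowest in RA-sufficient PL, at a lower level throughout. Here a test could be made, though the genes were chosen with earlier results of these data known. The In/B libraries held 4.53, 4.76 and 5.82 CPM. The RA-sufficient PL libraries held 0.294, 0.909 and 1.37 CPM, from only 4 to 31 counts. The RA-deficient PL libraries held 8.76, 8.20 and 7.39 CPM, the highest of the 3 groups. No 2 groups overlapped. Tests were made with edgeR's quasi-likelihood method on all genes, p-values were adjusted by Benjamini-Hochberg over all genes tested, and a gene was called where the log2 fold change was beyond 1 in size and the adjusted p below 0.05. Rspo1 fell from In/B to RA-sufficient PL, with a log2 fold change of -2.45 (SE 0.51, 95% interval -3.60 to -1.29, edgeR adjusted p = 0.00274). It was higher in RA-deficient than in RA-sufficient PL, by a log2 fold change of 3.23 (SE 0.59, interval 1.85 to 4.61, edgeR adjusted p = 0.00973), which is 9.36-fold. Between RA-deficient PL and In/B the log2 fold change was 0.85 (SE 0.34, interval 0.07 to 1.64, edgeR adjusted p = 0.0851), which was not called. Both calls held with each library left out in turn, and the PL difference came closest to the threshold without RA-sufficient PL replicate 2 (edgeR adjusted p = 0.0487). With RA-deficient replicate 3 as the only library of its group the log2 fold change was 3.06, a value given without a test.

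**Figure D1:**
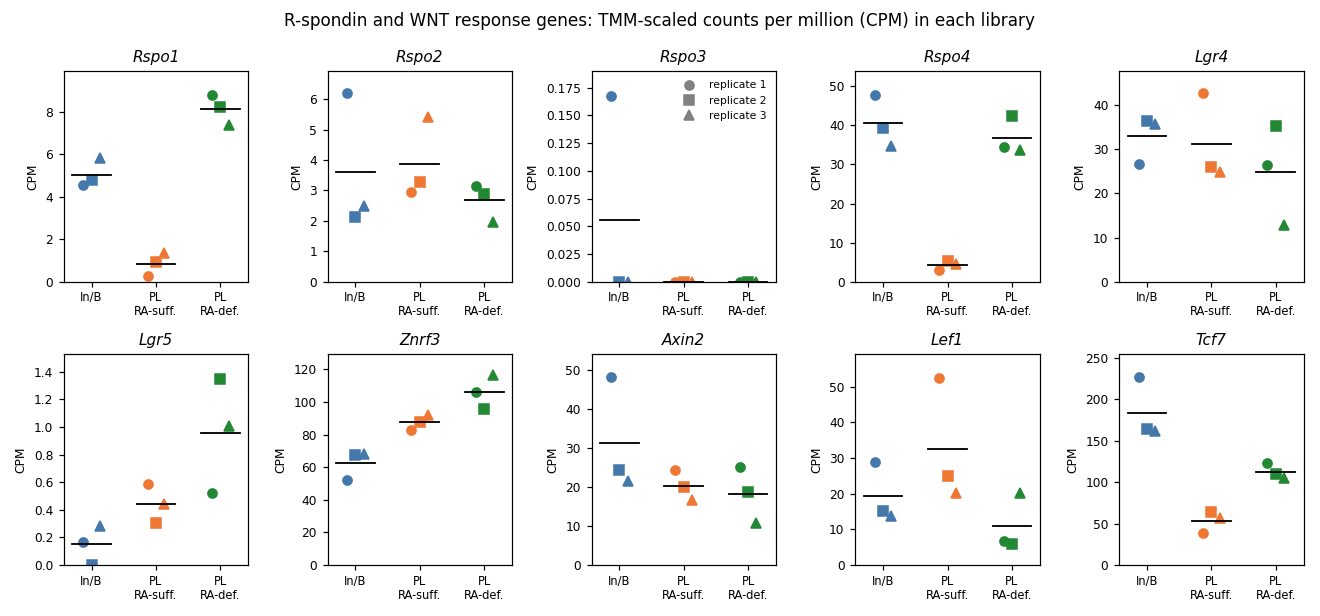
CPM of each of the 10 genes (vertical axes, linear, each from 0) in In/B spermatogonia, RA-sufficient PL and RA-deficient PL spermatocytes, with a point for each library (marker shape gives the replicate number) and a line at the group mean. Rspo4 and Rspo1 sit low in the 3 RA-sufficient PL libraries (3.09 to 5.34 and 0.294 to 1.37 CPM) and Tcf7 lies between 38.6 and 64.1 CPM there, below every library of the other groups.

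The remaining R-spondins did not share this pattern. Rspo2 (chr15:42852357-43002364, minus strand) held 6.21, 2.12 and 2.49 CPM in In/B, 2.94, 3.27 and 5.43 CPM in RA-sufficient PL and 3.16, 2.89 and 1.97 CPM in RA-deficient PL. All 3 groups overlapped. Its log2 fold change was -0.53 between RA-deficient and RA-sufficient PL (interval -1.68 to 0.61, edgeR adjusted p = 0.465), so that the error leaves room for a fall or a rise. Rspo3 (chr10:29172915-29255673, minus) had 3 counts in In/B replicate 1 and 0 in the other 8 libraries, too few for a test. A count of 0 still allows up to 3 counts, which is 0.113 to 0.221 CPM depending on the library.

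Divided by exon length, which allows levels of different genes to be compared, the summed R-spondin level was 24.4, 19.7 and 18.4 CPM per kb in the In/B libraries. It was 2.34, 3.70 and 4.24 CPM per kb in RA-sufficient PL and 19.9, 22.9 and 18.6 CPM per kb in RA-deficient PL. The In/B and RA-deficient sums overlapped, and the RA-sufficient sums lay below all of them. Rspo4 made up 79.6 to 84.3% of the length-scaled sum in In/B and 72.6 to 77.7% in RA-deficient PL, but 44.8 to 60.7% in RA-sufficient PL. There Rspo2, whose own level did not pass the test in any comparison, made up 26.6 to 38.5%, against 3.18 to 7.66% in the other 6 libraries. The share of Rspo1 was 9.58 to 16.3% in In/B, 6.49 to 16.7% in RA-sufficient PL and 18.5 to 22.7% in RA-deficient PL. These sums rest mainly on Rspo4 and carry its choice with them.

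**Figure D2:**
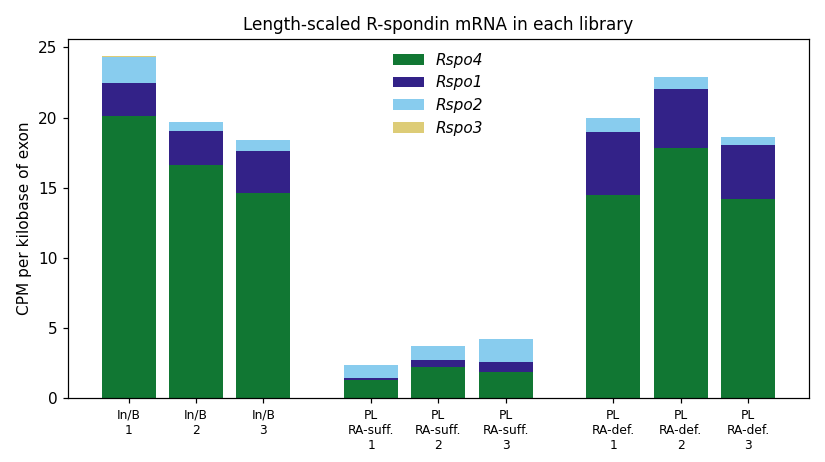
Summed R-spondin level in each library, as CPM per kilobase of exon (vertical axis, from 0), with the part of each R-spondin stacked and the libraries of each group side by side. The RA-sufficient PL bars reach 2.34 to 4.24 and the bars of the other 6 libraries 18.4 to 24.4 CPM per kb.

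Of the R-spondin receptors, Lgr4 was not called in any comparison, and Lgr5 is given without a test. Lgr4 (chr2:109757804-109854414, plus), the widely expressed receptor, held 26.6, 36.4 and 35.7 CPM in In/B, 42.7, 26.1 and 24.9 CPM in RA-sufficient PL and 26.4, 35.3 and 12.8 CPM in RA-deficient PL. The groups overlapped throughout, and the lowest value was that of RA-deficient replicate 3. Its log2 fold change was -0.02 between RA-sufficient PL and In/B (interval -0.58 to 0.54, edgeR adjusted p = 0.95), -0.23 between RA-deficient PL and In/B (-1.05 to 0.58, adjusted p = 0.655) and -0.34 between the PL groups (-1.32 to 0.63, adjusted p = 0.586). Lgr5 (chr10:114887367-115024836, minus), a stem cell marker of WNT-dependent epithelia, was near the limit of detection, with 3, 0 and 5 counts in In/B, 8, 5 and 10 in RA-sufficient PL and 13, 34 and 23 in RA-deficient PL. Per kilobase of exon its mean was 0.0146, 0.0433 and 0.0933 CPM in these groups, against 5.59, 5.31 and 4.22 CPM for Lgr4. It passed the filter on low counts only through the RA-deficient libraries, where it was highest, so it was not fitted between RA-sufficient PL and In/B and its fits in the other comparisons are given without a p. The fitted log2 fold change in RA-deficient PL was 2.82 against In/B (interval -0.26 to 5.90) and 1.09 against RA-sufficient PL (interval -0.94 to 3.12).

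Znrf3 (chr11:5176327-5344850, minus), whose product the LGR and R-spondin pair removes, was lowest in In/B and highest in RA-deficient PL, with RA-sufficient PL between them. The In/B libraries held 52.4, 67.4 and 68.1 CPM, the RA-sufficient PL libraries 83.0, 87.5 and 91.7 CPM and the RA-deficient PL libraries 106.3, 95.7 and 116.6 CPM. No 2 groups overlapped, although the neighbouring PL groups came close. The log2 fold change was 0.54 for RA-sufficient PL against In/B (SE 0.14, edgeR adjusted p = 0.00827) and 0.93 for RA-deficient PL against In/B (SE 0.16, edgeR adjusted p = 0.00276). Both passed the adjusted p, and neither reached the 2-fold threshold for a call. For RA-deficient against RA-sufficient PL it was 0.28 (interval -0.02 to 0.57, edgeR adjusted p = 0.154), so the difference between these neighbours did not pass the test.

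Tcf7 (chr11:52065873-52096681, minus), which encodes TCF1, had the highest level per kilobase of the 10 genes in each group and the order of groups seen for Rspo4. The In/B libraries held 226.5, 163.9 and 161.7 CPM. RA-sufficient PL libraries held 38.6, 64.1 and 56.6 CPM and RA-deficient PL libraries 122.6, 110.3 and 105.6 CPM. No 2 groups overlapped, and the RA-deficient libraries lay between the others. The level fell from In/B to RA-sufficient PL by 1.74 on the log2 scale (SE 0.22, edgeR adjusted p = 0.000195). In RA-deficient PL it was higher than in RA-sufficient PL, by a log2 fold change of 1.09 (SE 0.19, edgeR adjusted p = 0.00849), or 2.13-fold. It was at -0.54 against In/B (SE 0.17, edgeR adjusted p = 0.0383), under the 2-fold threshold. The difference between the PL groups was close to that threshold, and the call ended without RA-sufficient PL replicate 1 (0.92) and in a test against a fold change of 2 (edgeR adjusted p = 0.644). With RA-deficient replicate 3 as the only library of its group the log2 fold change was 0.99, again without a test.

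Lef1 (chr3:130813389-130927274, plus), another factor of the TCF/LEF family, did not move with Tcf7. It held 29.0, 15.2 and 13.8 CPM in In/B, 52.5, 24.9 and 20.2 CPM in RA-sufficient PL and 6.84, 5.86 and 20.2 CPM in RA-deficient PL. The PL groups just failed to overlap, because RA-deficient replicate 3 lay at the level of the lowest RA-sufficient library while replicates 1 and 2 lay well below all others. Compared between PL groups, the log2 fold change was -1.60 (SE 0.59, interval -2.98 to -0.21, edgeR adjusted p = 0.0926), which was not called. Without RA-deficient replicate 3 it was -2.34 (edgeR adjusted p = 0.00554), which was called, and with it as the only RA-deficient library the value was -0.68, given without a test. Against In/B the log2 fold change was 0.80 with RA (interval -0.15 to 1.75, edgeR adjusted p = 0.121), which was called without In/B replicate 1 (1.22, edgeR adjusted p = 0.0332), and -0.66 without RA (-1.89 to 0.57, adjusted p = 0.386), which was called without RA-deficient replicate 3 (-1.44, edgeR adjusted p = 0.0184).

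Axin2 (chr11:108781663-108812097, plus), a negative regulator and the most commonly used transcriptional readout of WNT, showed no difference that passed the test. The In/B libraries held 48.3, 24.5 and 21.5 CPM, the RA-sufficient PL libraries 24.4, 20.0 and 16.6 CPM and the RA-deficient PL libraries 25.3, 18.9 and 10.8 CPM. All groups overlapped, with In/B replicate 1 highest and RA-deficient replicate 3 lowest. The log2 fold change between the PL groups was -0.16 (interval -1.01 to 0.68, edgeR adjusted p = 0.773), and against In/B it was -0.58 with RA (-1.32 to 0.17, adjusted p = 0.151) and -0.62 without (-1.57 to 0.34, adjusted p = 0.289). Exons of Axin2 overlap those of Gm11670 on the opposite strand. The sources used here do not say whether counting used the strand, so reads of this pair may not have been told apart.

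Of the 9 genes other than Rspo4, 7 could be tested between RA-sufficient PL and In/B and 2 were called, Rspo1 and Tcf7, both lower. Of all 15001 genes tested 45.4% were called in this comparison, 26.1% higher and 19.3% lower. Lgr5 is left out of the counts that follow, since it passed the filter only through the RA-deficient libraries. Between RA-deficient PL and In/B 0 of 7 tested genes were called, against 23.2% of 14877 (11.4% higher and 11.8% lower). DESeq2 also called 0. In edgeR 3 had an unadjusted p under 0.05, which were Rspo1, Znrf3 and Tcf7. For RA-deficient against RA-sufficient PL 2 of 7 were called, Rspo1 and Tcf7, both higher in RA-deficient PL. Of all 15352 genes tested 15.5% were called in either direction, 4.47% higher and 11% lower. RA-sufficient PL and In/B did not overlap for 3 of 7 of these genes, 1 higher and 2 lower, against 71.5% of all genes tested (35.6% higher and 35.9% lower). RA-deficient PL and In/B did not overlap for 3 of 7, 2 higher and 1 lower, against 54.6% (21% higher and 33.6% lower). The PL groups did not overlap for 4 of 7, 3 higher and 1 lower, against 47.4% (20.1% higher and 27.3% lower). The 3 comparisons share libraries in pairs and are not independent of each other.

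**Figure D3:**
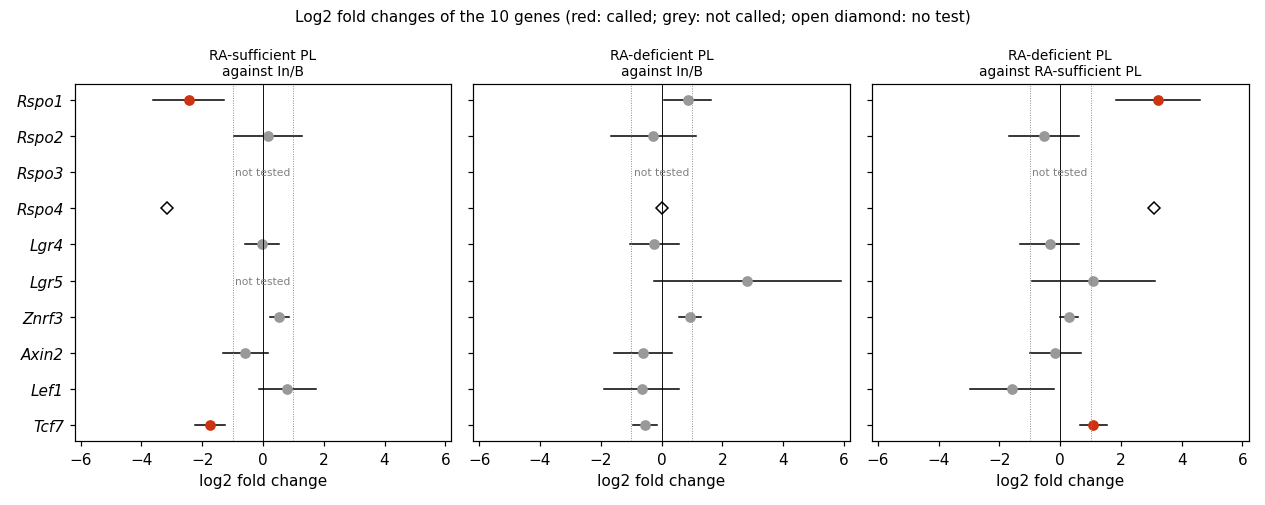
Log2 fold changes (horizontal axes) of the 10 genes in the 3 comparisons with 95% intervals from edgeR, red where called and grey where not. The grey points of Lgr5 are given without a test. Rspo4 is an open diamond without an interval because it was chosen on these values, dotted lines mark a 2-fold change, and Rspo1 and Tcf7 are the red points, at -2.45 and -1.74 on the left and 3.23 and 1.09 on the right.

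Markers of other cells and stages moved with these results. All 11 Sertoli markers were higher in RA-sufficient PL than in In/B and all 11 were lower in RA-deficient than in RA-sufficient PL, the reverse of Rspo1, Rspo4 and Tcf7. Clu alone was at 1849 to 2519 CPM in RA-sufficient PL and at 38.5 to 348.1 CPM in the other libraries. Of the 6 spermatogonial markers 5 were called lower in RA-sufficient PL than in In/B. The other, Sohlh2, was also lower but under 2-fold (log2 fold change -0.725, edgeR adjusted p = 0.00167). All 6 markers were called higher in RA-deficient than in RA-sufficient PL, the same direction as these 3 genes. Their sum was 3531 to 5263 CPM in In/B, 637.9 to 868.8 CPM in RA-sufficient PL and 1467 to 3297 CPM in RA-deficient PL, with replicate 3 lowest. It includes Uchl1, whose promoter drives the EGFP used for the sort. The part of Sertoli cells and of spermatogonia in the levels of Rspo1, Rspo4 and Tcf7 was not tested. The markers of blood Hbb-b1 and Hba-a1 were at 0 in all libraries, and sums of Leydig (9.56 to 38.6 CPM), endothelial (5.18 to 17.2 CPM) and macrophage and blood markers (3.57 to 12.8 CPM) were low. Those of peritubular and stromal cells summed to 77.5 to 96.0 CPM in In/B, 94.8 to 107.7 in RA-sufficient and 139.0 to 149.4 in RA-deficient PL. Within this sum Col1a1 ran against the rest, with means of 56.7, 11.7 and 64.4 CPM, and 6 of the 8 markers were called higher in RA-sufficient PL than in In/B and 1, Col1a1, lower. The part of these cells in the results was not tested.

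**Figure D4:**
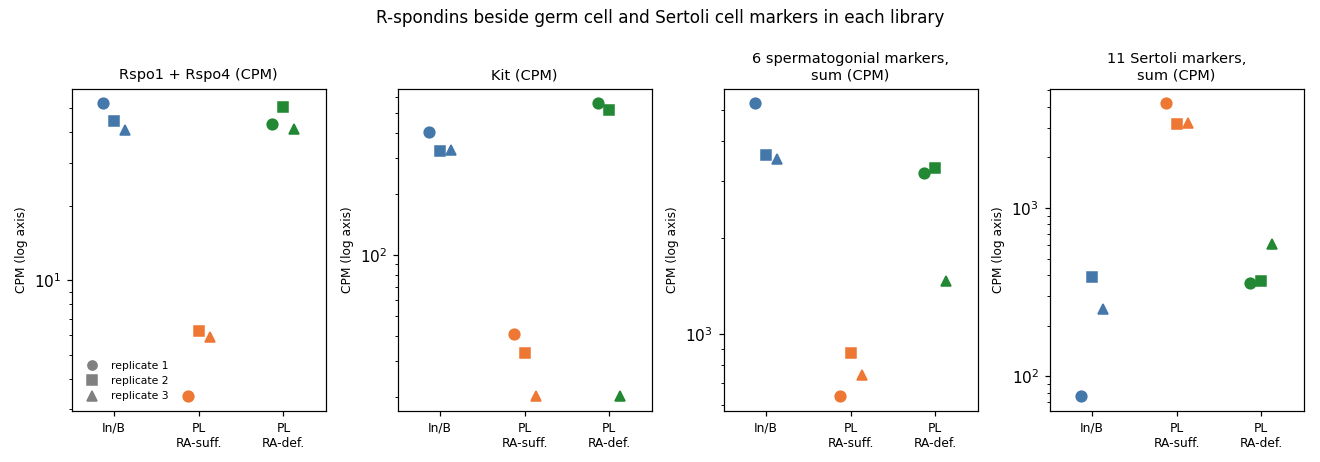
Rspo1 and Rspo4 summed, Kit, 6 spermatogonial markers summed and 11 Sertoli markers summed, in CPM on log axes, with a point for each library of the 3 groups. The first sum is mostly Rspo4, which was chosen for being higher in RA-deficient than in RA-sufficient PL, so its pattern carries that choice. RA-deficient replicate 3 (green triangle) lies with the RA-sufficient libraries for Kit, at 20.3 CPM, but above them in the spermatogonial sum, at 1467 against 637.9 to 868.8 CPM.

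The genes whose levels followed Rspo4 most closely were ranked by Pearson's r of log2(CPM + 1) over the 9 libraries, among the 14009 genes that averaged 1 CPM or more. The points are 3 groups of 3 libraries, so r mostly reflects the group means. Eef2, a translation elongation factor, came first at 0.994, followed by Acap3 and Drosha, the nuclease of microRNA processing, at 0.992, and Map3k9 was at 0.99. Map3k9 held means of 100.5, 32.2 and 105.0 CPM in In/B, RA-sufficient and RA-deficient PL, and Drosha 642.0, 246.6 and 646.8 CPM. Rspo1 ranked 209 with r = 0.937 and Tcf7 282 with r = 0.925. For the other members r was between -0.613 (Lef1) and 0.325 (Rspo3, which had counts in only 1 library).

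The rest of the WNT pathway was followed in lists of 98 further genes, all found in the table. In the comparison of the PL groups 76 could be tested, of which 10 were called higher in RA-deficient PL and 5 called lower. The median log2 fold change of the 76 was 0.32 against -0.09 over all genes. The calls among all genes ran the other way, with 4.47% higher and 11% lower. For RA-sufficient PL against In/B 11 of 75 were called higher and 25 called lower (26.1% and 19.3% of all genes). The median of the 75 was -0.56 against 0.04. For RA-deficient PL against In/B 4 of 77 were called higher and 13 called lower (11.4% and 11.8% of all genes). The median of the 77 was -0.06 against 0.00382. Leaving out RA-deficient replicate 3 gave 20 higher and 9 lower between the PL groups. DESeq2 gave 15 higher and 6 lower, and edgeR's test against a fold change of 2 gave 1 higher and 1 lower. By adjusted p alone edgeR gave 17 higher and 5 lower. Leaving out a RA-sufficient replicate gave 4 to 8 higher and 2 or 3 lower, so the number of calls depended on single libraries and on the test. Of the 15 genes called between the PL groups 6 were called in every fit with a library left out, which were Porcn, Ptk7, Fzd7, Notum, Csnk1e and Tle3. Notum passed the filter on low counts only through the RA-deficient libraries, where it was high, so its calls are no independent support.

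Among WNT ligands and their secretion, 10 of 21 genes could be tested between the PL groups and 1 was called. This was Porcn, the acyltransferase that lipidates WNT proteins for secretion and the gene of that list with the highest mean CPM. It held 27.6 to 36.3 CPM in RA-sufficient PL, 2.27 to 4.71 CPM in RA-deficient PL and 7.64 ± 2.91 CPM in In/B (SD, n = 3). The log2 fold change between the PL groups was -3.34 (SE 0.38, edgeR adjusted p = 0.00209). The Sertoli markers fell in the same direction, and their part in this result was not tested.

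Of 18 receptors and co-receptors, all testable, 2 were called higher and 2 called lower in RA-deficient PL. Ptk7, a WNT co-receptor with an inactive kinase domain, was at 220.7 to 244.9 CPM in In/B, 20.2 to 27.8 with RA and 49.6 to 98.2 without, a log2 fold change of 1.65 between the PL groups (SE 0.28, edgeR adjusted p = 0.00762). Fzd7 and Fzd9, Frizzled receptors, were lower, at -2.06 (edgeR adjusted p = 0.0106) and -2.08 (adjusted p = 0.0374), whereas Fzd5 was higher. The Sertoli markers fell in the same direction as Fzd7 and Fzd9, and their part in this was not tested. The spermatogonial markers were higher without RA, as Ptk7 was, and the part of spermatogonia in this was not tested. The Fzd5 libraries held 32.2 to 40.5 CPM in RA-deficient PL, 11.3 to 18.5 in RA-sufficient PL and 6.88 to 13.6 in In/B. Its log2 fold change was 1.22 between the PL groups (edgeR adjusted p = 0.0189) and was called in 3 of 6 fits with a library left out, and that of Fzd9 in 1 of 6. Lrp6, the co-receptor with the highest CPM of the list, was at 311.3 to 315.0 CPM without RA, 189.2 to 204.4 with RA and 201.6 to 262.3 in In/B, a difference of 0.66 between the PL groups (SE 0.10, edgeR adjusted p = 0.00527) that stayed under 2-fold.

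Inhibitors of WNT went both ways, with 3 of 12 tested genes called higher and 1 called lower in RA-deficient PL. Notum, which removes the lipid from WNT proteins, held 2.71 to 9.39 CPM there, 1.53 to 6.71 in In/B and 0.242 to 0.397 in RA-sufficient PL, the last from 4 to 9 counts. Notum lay under the filter on low counts in every RA-sufficient library and passed it only through the RA-deficient ones, where it was high. Its fitted log2 fold change between the PL groups, 4.10, is therefore given without a p, and its call in the counts carries this limit. Notum thus had the order of groups of Rspo1, with overlap between RA-deficient PL and In/B. Frzb, a secreted protein that binds WNT, was lower without RA. It was at 75.1 to 85.7 CPM in RA-sufficient PL, 1.68 to 16.3 in RA-deficient PL and 0.168 to 4.31 in In/B, a log2 fold change of -3.43 (edgeR adjusted p = 0.0185) called in 2 of 6 fits with a library left out. Replicate 3 was the highest RA-deficient library both in Frzb and in the Sertoli marker sum, and the part of Sertoli cells in this was not tested. Apcdd1, a membrane inhibitor, was at 1.71 (edgeR adjusted p = 0.0248) and Kremen2, a receptor for the Dickkopf inhibitors, at 2.65 (adjusted p = 0.0375), each called in 2 of 6 such fits. Kremen1, of the same family, was at -0.44 (edgeR adjusted p = 0.384).

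Among Dishevelled and the complex that destroys β-catenin, 2 of 17 genes were called higher and 1 called lower without RA. Dvl1, which relays the signal from Frizzled, was at 363.8 to 432.1 CPM in RA-deficient PL against 160.8 to 201.6 with RA and 170.5 to 223.2 in In/B, with a log2 fold change of 1.06 (SE 0.14, edgeR adjusted p = 0.00302) that fell below 1 in 1 of 6 fits with a library left out. Csnk1e, a kinase of the pathway, was at 1.70 (SE 0.25, edgeR adjusted p = 0.00478), and its RA-deficient libraries (34.9 to 51.9 CPM) lay between RA-sufficient PL (12.2 to 16.9) and In/B (106.4 to 160.0), as Tcf7 did. The spermatogonial marker sum had this order of groups too, and the part of spermatogonia in the level of Csnk1e was not tested. Amer1, an APC-binding protein, was at -1.98 (edgeR adjusted p = 0.0231) and was called in 4 of 6 fits with a library left out. Ctnnb1, which encodes β-catenin itself, was at 0.31 (SE 0.10, edgeR adjusted p = 0.0695), with 353.9 to 371.8 CPM with RA and 407.0 to 481.6 without.

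Nuclear factors showed 2 of 13 genes called higher and 0 called lower without RA. Tle3, a co-repressor that binds TCF factors, was at 37.4 to 57.7 CPM with RA, 108.9 to 120.8 without and 211.2 to 361.8 in In/B, 2.29-fold higher without RA than with it (SE of the log2 fold change 0.18, edgeR adjusted p = 0.00499). Tcf7l1, a mostly repressive TCF, was at 1.99 (SE 0.51, edgeR adjusted p = 0.0309), with 33.9, 30.2 and 11.3 CPM in the RA-deficient libraries against 3.70 to 8.76 with RA, and was called in 1 of 6 fits with a library left out. Tle3 and Tcf7l1 had the order of groups of the spermatogonial marker sum, highest in In/B and lowest with RA. The part of spermatogonia in this was not tested. Chd8, a chromatin remodeller that binds β-catenin, was at 0.33 (edgeR adjusted p = 0.159). Of 6 testable response genes other than the members, only Tbx3 was called, at 1.56 (SE 0.43, edgeR adjusted p = 0.0367), in 1 of 6 such fits. Ccnd1, a cell cycle gene of differentiating spermatogonia, had the highest CPM of these and split the RA-deficient group, at 76.9, 86.4 and 8.05 CPM against a mean of 15.8 with RA and 271.5 to 358.9 in In/B. Its log2 fold change between the PL groups was 1.85 (edgeR adjusted p = 0.112), and replicate 3 stood apart in it as in Kit.

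**Figure D5:**
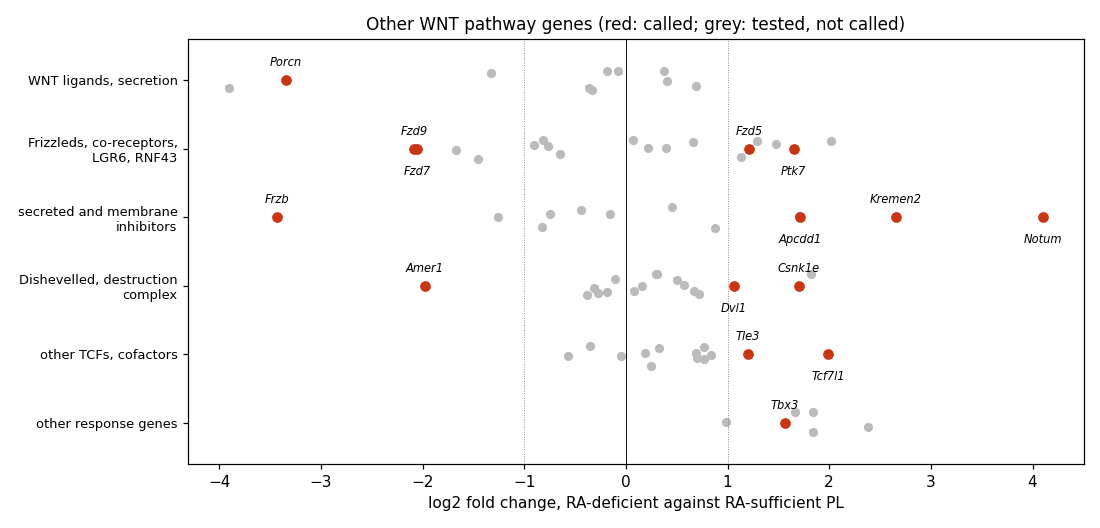
Log2 fold change between RA-deficient and RA-sufficient PL spermatocytes (horizontal axis) of the 76 other WNT pathway genes that could be tested, a row for each list, with called genes in red and named. Red points lie on both sides, 10 to the right and 5 to the left, and dotted lines mark a 2-fold change. Notum passed the filter on low counts only through the RA-deficient libraries.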

How the data were processed

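The values are raw counts that the authors deposited for 9 libraries, with no normalization. By the sample records and the study's methods, stranded poly(A) libraries were read from a single end, and reads were trimmed with cutadapt 1.9, aligned to mm9 with STAR 2.5.2b and counted with featureCounts. The annotation and strand setting are not given in the sources used here. Positions and exon lengths are those of GENCODE M1. Total counts set the precision, and 3 counts correspond to 0.113 to 0.221 CPM.

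Pairs of groups were tested with edgeR 4.0.16 (R 4.3.3), with filterByExpr, TMM scaling, the quasi-likelihood test and Benjamini-Hochberg adjustment, after a check on simulated data. Each pair was scaled by itself, CPM over all 9 libraries. The members and gene lists were chosen with earlier results of these data known. Named genes are the 10 members, from each list up to 4 genes called between the PL groups (lowest p first) and that with the highest mean CPM, and the 5 genes most like Rspo4, of which 1 is not reported here. Alternatives were other scalings and filters, a single fit, a replicate block, DESeq2 1.42.0, other thresholds and single libraries left out. RA-deficient replicate 3 alone was added after seeing the data. Columns left unused numbered 0.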

Additional observations from a re-analysis of the deposited data

How the results depend on the processing

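Rspo1 and Tcf7 stayed called between RA-sufficient PL and In/B under every scaling, filter, tool and left-out library that was run. So did Rspo1 between the PL groups. The call of Tcf7 between the PL groups ended by library size only, against a fold change of 2 and without RA-sufficient replicate 1. Where RA-deficient replicate 3 stands alone, the spread comes from the other group and the lone library is assumed to vary like it. For that setting only effect sizes are given. Genes called between RA-deficient PL and In/B numbered 3446 and were 1207 when tested against a fold change of 2, 5459 by adjusted p alone and 6025 with RA-deficient replicate 3 alone. Between the PL groups they numbered 2383 and were 741 against a fold change of 2 and 3629 by adjusted p alone. With a library left out they ranged from 1190 (without RA-sufficient replicate 2) to 4484 (without RA-deficient replicate 3), and in the other comparisons from 6553 to 6837 (RA-sufficient PL against In/B) and from 2639 to 3995 (RA-deficient PL against In/B). Members called between RA-deficient PL and In/B (0) became 2 by adjusted p alone, and ranged from 0 to 1 with a library left out. Between the PL groups (2) they became 1 by library size only and 1 against a fold change of 2, and ranged from 1 to 3 with a library left out. For RA-sufficient PL against In/B they ranged from 2 to 3. Scaling by library size only shifted the median of all genes by -0.183 between the PL groups and -0.316 between RA-deficient PL and In/B (log2). Tcf7 was then at 0.90 between the PL groups, and relative to the median at 1.18, as under TMM. DESeq2 called Lef1 between the PL groups (-1.58, DESeq2 adjusted p = 0.0206).

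Some values changed sign. Lgr4 in RA-sufficient PL against In/B was at 0.036 with a mean of at least 50 counts and ranged from -0.319 to 0.124 with a library left out, and Rspo2 from -0.154 to 0.814. In RA-deficient PL against In/B, Rspo4 was at -0.295 by library size only, -0.0023 without a filter, -0.107 in a single fit, -0.120 to 0.162 with a library left out and -0.199 with replicate 3 alone, Rspo2 ranged from -0.567 to 0.386 (without In/B replicate 1) and Lgr4 from -0.593 to 0.082 (without RA-deficient replicate 3), and Lef1 was at 0.131 with replicate 3 alone. Between the PL groups Axin2 ranged from -0.445 to 0.126 with a library left out, and with replicate 3 alone Kremen1 was at 0.098, Chd8 at -0.0055 and Ccnd1 at -0.97. The cause was not tested. Same-numbered libraries did not deviate together (r from -0.268 to 0.134 over the 3 comparisons). With the replicate number as a block, 6373, 3208 and 1765 genes and 2, 0 and 2 members were called in the 3 comparisons, and Fzd9, Kremen2 and Tbx3 were no longer called. Low counts limit Rspo3 and Lgr5.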

Other observations

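Some other genes of the WNT lists, chosen after their values were seen, changed at the step from In/B to RA-sufficient PL. Lgr6, the other R-spondin receptor, held 0.622 to 1.01 CPM in In/B, 1.98 to 4.00 in RA-sufficient PL and 1.00 to 2.69 in RA-deficient PL. Its log2 fold change from In/B to RA-sufficient PL was 2.00 (SE 0.46, edgeR adjusted p = 0.00468). Rnf43, the relative of Znrf3, rose by 2.15 in the same comparison (SE 0.42, edgeR adjusted p = 0.00196), from 0.643 to 0.678 CPM in In/B to 2.16 to 3.31 CPM in RA-sufficient PL, and was at 0.720 to 1.59 CPM in RA-deficient PL. Both lie at low counts, from 11 to 68 and from 12 to 51 per library. Between the PL groups they were at -0.64 (edgeR adjusted p = 0.486) and -1.45 (edgeR adjusted p = 0.146), which did not pass the test. The Sertoli markers rose from In/B to RA-sufficient PL too, and their part in the values of Lgr6 and Rnf43 was not tested.

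Wnt9a, a WNT ligand, was lower in both PL groups than in In/B, where it held 6.90 to 15.0 CPM. With RA the PL libraries held 0.221 to 0.573 CPM and without RA 0.040 to 0.918 CPM. Its log2 fold change against In/B was -4.62 with RA and -4.20 without. These are given without a p, since Wnt9a was picked on its values and passed the filter on low counts through the In/B libraries. Between the PL groups the log2 fold change was 0.37 (interval -2.41 to 3.15, edgeR adjusted p = 0.844). Unlike Rspo4 and Rspo1, it was thus low in all 6 PL libraries.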
